A study of Triticum aestivum with 78 samples.

Results

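The comparison is between wheat lines with a low and lines with a high level of 1 transcript, here called the classifying transcript after the probe set that detects it, in developing seed. Lines were selected on the measured log2 values of that probe set, whose identifier is given with the processing. Of the 39 lines in the series, 15 were low lines (both arrays below 5.5 log2 units there) and 19 were high lines (both arrays above 5.5), so that 34 lines and 68 of 78 arrays entered the comparison. The other 5 lines were left out: H9, G30, G13 and B33 by name, and F44 because its arrays lay on both sides of 5.5. The low lines were A40, A91, B10, B65, C22, C25, C31, D15, D39, DH95, F48, G32, H10, H23 and H8. The high lines were A10, A35, A77, A81, A88, B11, B68, C10, C58, DH91, E5, F29, F36, F38a, F38b, F82, F87, H5 and J15. These classes were made from measured values and are not groups of the study, so the levels of the classifying probe set itself are given as a description, with no test.

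All lines come from the cross of the wheat RL4452 with the cultivar AC Domain, and no array of a parent was used here. They were grown together in the field, in a lattice of 49 entries with 3 replications, and seed was frozen 5 days after anthers became visible. Each line gave 2 biological replicates, each hybridized as labelled cRNA to 1 Affymetrix wheat array, and the labels do not say which field plot a replicate came from, so p-values measure the spread between these lines. Values are log2 of the RMA intensities that the authors deposited.

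In a population of fixed lines from 1 cross, each line carries the allele of one or the other parent at nearly every locus. A locus that alters a transcript's level therefore divides the lines into a lower and a higher class, and several transcripts that respond to 1 locus, or to loci lying close together on a chromosome, divide the lines in the same or nearly the same way. Bread wheat is hexaploid, with related gene copies on its A, B and D genomes, and a probe set can detect more than one copy; suffixes _s_at and _x_at mark probe sets whose probes match several transcripts. A base difference between parental alleles under a probe also changes its signal, and it cannot be told apart from a difference in transcript level in these values. In whole seed, fewer cells of a type and less RNA per cell cannot be told apart either.

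Array medians overlapped between the classes, at 32.3 to 36.4 intensity units in low lines and 32.1 to 34.0 in high lines, and each line had 1 array of each replicate number. Replicate numbers coincided with scanning campaigns, apart from 1 scan day that held both. Arrays of both classes were scanned on 9 of 15 scan days, and 10 arrays were scanned on days that held 1 class. The transcript of the starch synthase GBSS, an enzyme of the endosperm, lay between 7.43 and 11.35 in the 34 lines. The tapetum genes raftin1a and raftin1b, markers of anther residue, reached at most 5.67, and 3 of their 4 probe sets stayed below 5.06, the array's median level, in every line. Levels below that median were not shown to exceed background, so differences there hold for intensities only. The profilin gene PRO1, listed below with tapetum and pollen genes, was far higher than the raftin genes. Its line means were 11.44 to 12.35 at 1 probe set and 13.31 to 13.48 at the other. Whether anther residue remained in the seed samples was not tested.

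At the classifying probe set the low lines had a lowest line mean of 3.98 (B65), a median of 4.45 and a highest of 4.71 (C31). The high lines had a lowest of 6.05 (F36), a median of 7.10 and a highest of 7.57 (A35). Class means were 4.44 ± 0.18 (SD, n = 15) and 7.04 ± 0.38 (SD, n = 19), and the median SD between the 2 arrays of a line was 0.16. The arrays just inside the threshold were C31 replicate 1 at 4.80 and F36 replicate 1 at 5.83, and the left-out line F44 had 5.57 and 4.51. Of the other left-out lines, H9 had 4.13 and 4.73, G30 4.42 and 4.43, G13 4.20 and 4.62, and B33 4.21 and 4.27, all on the low side. The low class was narrow and lay below the median level of the array, whereas the high class tapered downward to F38a, F82 and F36.

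**Figure D1:**
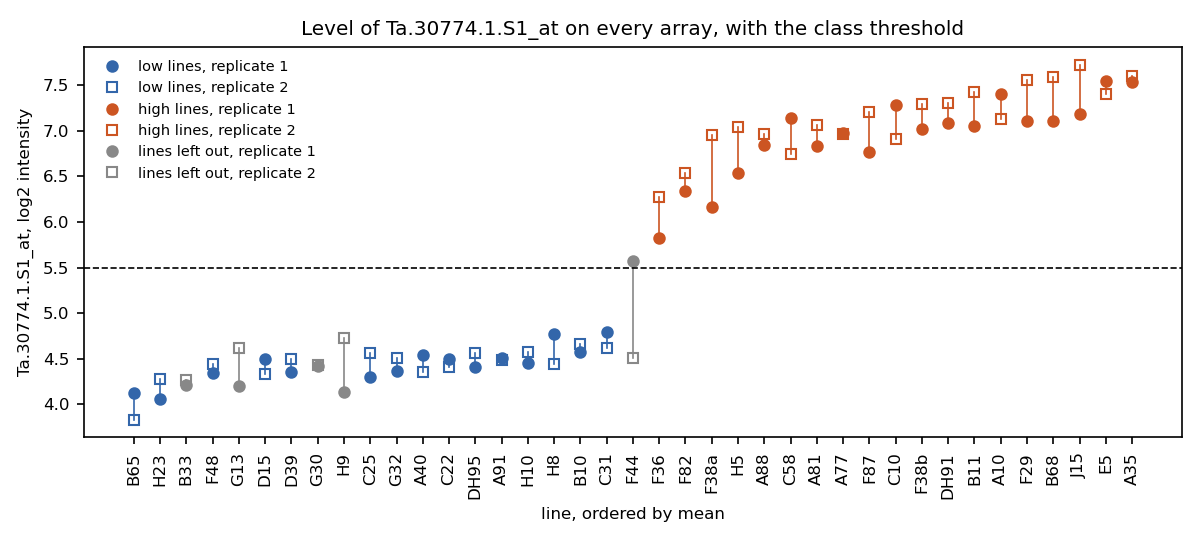
Level of the classifying probe set in log2 intensity (vertical axis) on both arrays of each of the 39 lines, ordered by line mean, with replicate 1 as filled circles, replicate 2 as open squares and the threshold of 5.5 as a dashed line. Low lines end at 4.80, high lines begin at 5.83, and F44 is the line with arrays on both sides.

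Few other transcripts differed between the classes. Of 61114 probe sets tested outside the cluster of the classifying probe set, 20 passed an adjusted p of 0.05 (limma's moderated test on line means, Benjamini-Hochberg), which is 0.0327% of those tested. High lines had the higher level at 15 of them (0.0245%) and the lower level at 5 (0.00818%). By the cluster given in their names, the 20 belonged to 17 clusters, since Ta.22794, Ta.28775 and Ta.4484 each had 2. Their differences measured 0.20 to 2.21 log2 units, the median being 0.57, against 0.04 over all tested probe sets. A difference of at least 2-fold was seen at 29 probe sets, of which 4 passed. One of the 20, here called the companion probe set, was already known to divide the lines as the classifying probe set does, and its values are a description. For 6 of the 20 the line means of the classes did not overlap, and no other tested probe set had such a separation (0.00982% of those tested). High lines were higher at 5 of the 6 (0.00818%) and lower at 1 (0.00164%). Single arrays did not overlap at 3, which are the companion probe set, TaAffx.26508.1.S1_at and Ta.24035.1.A1_at (0.00491%).

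**Figure D2:**
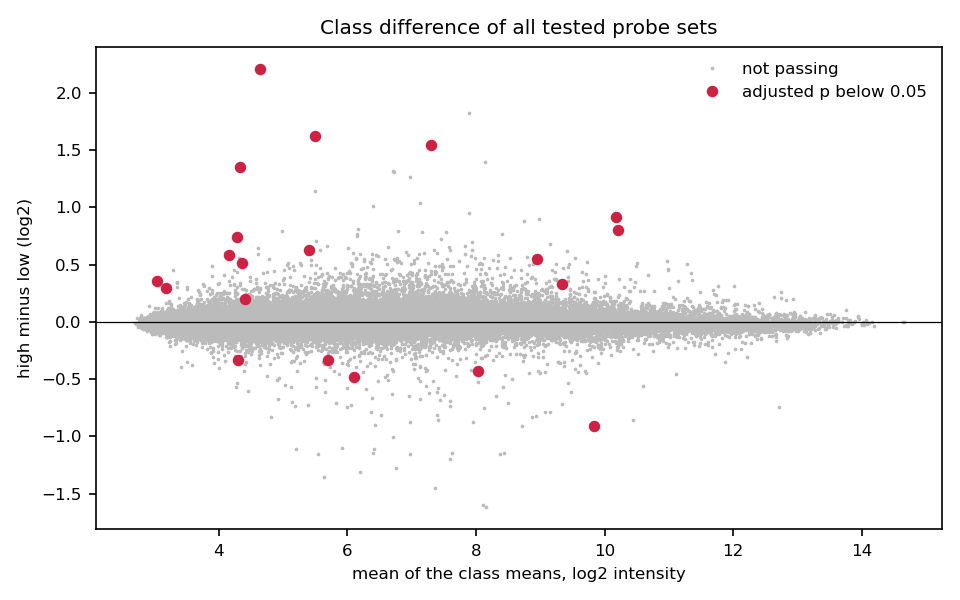
Difference between high and low lines in log2 units (vertical axis) against the mean of the class means in log2 intensity (horizontal axis) for the 61114 tested probe sets, with the 20 that passed in red. Most probe sets lie close to 0, and several with differences above 1 log2 unit did not pass.

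The companion probe set had line means from 6.32 to 6.81 in low lines (median 6.48) and from 7.47 to 8.48 in high lines (median 8.11). The difference was 1.55 ± 0.06 log2 units (SE), or 2.92-fold. F36 was again the lowest high line and A35 the highest, and the arrays of the classes were 0.50 apart at their nearest. Both classes lay above the median level here, unlike at the classifying probe set.

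The largest difference among the 20 was at TaAffx.26508.1.S1_at, a probe set without an annotated gene. Low lines ran from 3.16 to 3.79 (median 3.57) and high lines from 4.91 to 6.42 (median 5.66). This was a difference of 2.21 ± 0.10 (SE), or 4.62-fold in intensity (limma adjusted p = 7.23e-18), and the gap between the nearest line means was 1.12. No array lay past the midpoint of the class means. F36 was the lowest high line, and F38b the highest. The low class lay wholly below 5.06, so the fold holds for intensities only.

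Ta.27038.1.S1_s_at went the other way. Low lines had 10.00 to 10.60 (median 10.30) and high lines 8.87 to 9.65 (median 9.41), so high lines were lower by 1.88-fold (difference −0.91 ± 0.06 SE, limma adjusted p = 9.06e-13). Line means were 0.36 apart at their nearest, although 2 arrays lay past the midpoint. Of the 6 it was the one with the lower level in high lines, and both of its classes were well above the median level. Another probe set of the same cluster, Ta.27038.1.S1_x_at, had 9.22 ± 0.18 in low and 9.09 ± 0.16 in high lines, and Ta.27038.1.S1_at had 3.94 ± 0.17 and 4.18 ± 0.21. Neither passed (limma adjusted p = 0.897 for both). At Ta.27038.1.S1_at the difference of 0.24 ± 0.07 (SE) went the other way, higher in high lines, with both class means below the median level.

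Ta.26993.1.A1_at had line means of 4.42 to 5.00 in low lines (median 4.62) and 5.35 to 6.91 in high lines (median 6.43). High lines were 3.07-fold higher in intensity (1.62 ± 0.12 SE, limma adjusted p = 9.26e-12). F36 lay lowest among them and on the low side of the midpoint, and the low class lay below 5.06. At Ta.24035.1.A1_at the low lines had 3.46 to 3.80 (median 3.67) and the high lines 4.23 to 5.72 (median 5.05), a difference of 1.35 ± 0.09 (SE, limma adjusted p = 1.43e-12). F36 was the lowest high line there too, again past the midpoint. Ta.4484.1.A1_at had 3.67 to 4.11 and 4.22 to 4.80, with medians of 3.87 and 4.44 (difference 0.59 ± 0.05 SE, limma adjusted p = 7.81e-10). Here the classes were only 0.11 apart at their nearest, between the low line H8 and the high line F36. A second probe set of its cluster, Ta.4484.2.S1_at, was higher by 0.20 ± 0.04 (SE) with overlapping classes (adjusted p = 0.0167). The class means of Ta.24035.1.A1_at and both Ta.4484 probe sets were below 5.06.

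**Figure D3:**
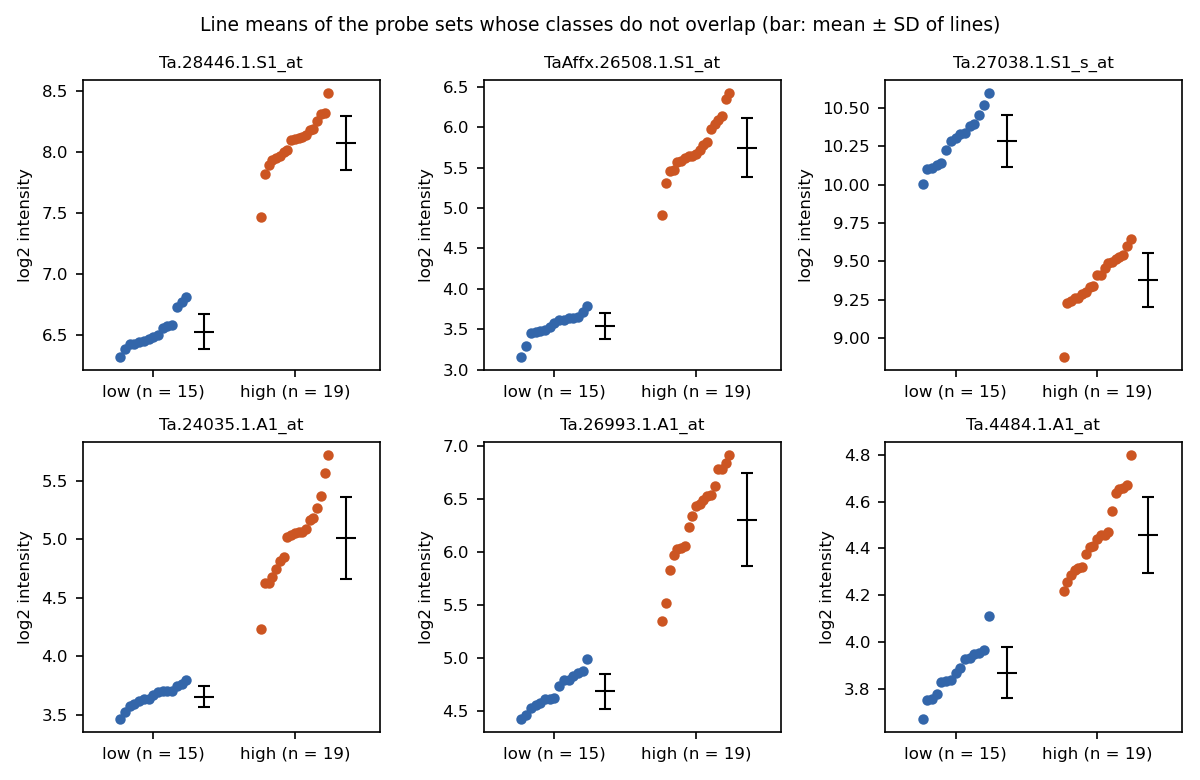
Line means in log2 intensity (vertical axes) at the 6 probe sets whose classes did not overlap, with each point a line, low lines in blue (n = 15), high lines in orange (n = 19) and the bar the mean ± SD of lines. High lines are higher at 5 and lower at Ta.27038.1.S1_s_at, and F36 is the lowest orange point at the other 5.

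The 6 probe sets were also the 6 most like the classifying probe set by the size of the class difference over the SD of line means within classes, with values of 8.12 for the companion probe set, 7.52 for TaAffx.26508.1.S1_at, −5.23 for Ta.27038.1.S1_s_at, 5.02 for Ta.24035.1.A1_at, 4.65 for Ta.26993.1.A1_at and 4.12 for Ta.4484.1.A1_at. The measure was taken over the 34 lines, from the same line means and classes as the overlap, so it is not a separate result. Only the classes made by the classifying probe set enter it, not that probe set's levels. Next came the probe sets Ta.22794.1.S1_x_at at 3.25, Ta.22794.1.S1_at at 3.20, Ta.21250.1.S1_at at −3.17 and TaAffx.56982.5.S1_at at −2.94. The likeness in rank says nothing of shared function.

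Of the 20 probe sets, 3 have a gene in the array's annotation, and these are of 2 genes known by locus numbers only, for which no function is given in the files. LOC543111 was represented by both Ta.22794 probe sets. At Ta.22794.1.S1_at low lines had 9.34 to 10.78 (median 9.61) and high lines 9.89 to 11.04 (median 10.67), so that high lines were 1.89-fold higher (0.92 ± 0.10 SE, limma adjusted p = 2.08e-07). At Ta.22794.1.S1_x_at the difference was 0.80 ± 0.08 (SE, adjusted p = 1.75e-07). The ranges overlapped through 2 lines: the low line C31 had the highest low value and lay among the high lines, and the high line F36 had the lowest high value and lay among the low lines. Another probe set of LOC543111, Ta.30622.1.S1_x_at, had 11.99 ± 0.06 in low and 12.04 ± 0.07 in high lines and did not pass (adjusted p = 0.897).

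LOC100037558, at Ta.21250.1.S1_at, was lower in high lines. Low lines had 7.90 to 8.44 (median 8.24) and high lines 7.52 to 8.06 (median 7.82), a 1.34-fold difference (−0.42 ± 0.05 SE, limma adjusted p = 6.14e-07). H8 was the lowest low line and DH91 the highest high line, and these were the 2 lines past the midpoint. C31 and F36 were on their own sides.

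Both genes lie on 1 chromosome in RefSeq's annotation of Chinese Spring (assembly v2.1), from which names and gene order alone were taken. In the order of annotated genes, LOC543111 is number 18 and LOC100037558 number 189 of 5659 on that chromosome, with 170 genes between them. No tested probe set is annotated to a gene between them. Of 51 probe sets annotated to that chromosome, the 3 above passed. They are of 2 genes, and the 2 Ta.22794 probe sets come from 1 sequence, so they are not independent. Of 1221 annotated to other chromosomes or unplaced sequences 0 passed in the same limma test, with 57 at an unadjusted p below 0.05. Over all 61114 tested probe sets 20 passed (0.0327%), and 2850 had an unadjusted p below 0.05. With so small a share passing, 0 among 1221 does not show that the differences were confined to that chromosome. The gene nearest that chromosome end with an annotated probe set was that of the alpha-amylase inhibitor CIII, number 2 in order. Its probe set Ta.1315.1.S1_at had 5.46 ± 0.39 in low and 5.49 ± 0.74 in high lines (adjusted p = 0.986). Past LOC100037558, the 8 probe sets of LOC606373, number 304, had differences of −0.11 to 0.03 and none passed. The other 17 probe sets that passed have no annotated gene and were not placed.

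Among those without an annotated gene, 5 with overlapping classes had both class means above the median level. TaAffx.56982.5.S1_at had 6.34 ± 0.17 in low and 5.86 ± 0.16 in high lines (limma adjusted p = 2.49e-06), with F82 the 1 line past the midpoint, and 6 other probe sets of its cluster did not pass. Ta.28775.1.S1_x_at had 8.67 ± 0.25 and 9.22 ± 0.19 (adjusted p = 5.54e-05). Ta.128.1.S1_at had 9.17 ± 0.13 and 9.50 ± 0.15 (adjusted p = 0.00026), and Ta.9819.1.S1_at had 5.86 ± 0.19 and 5.53 ± 0.16 (adjusted p = 0.00685). Of these, Ta.28775.1.S1_x_at and Ta.128.1.S1_at were higher in high lines, and TaAffx.56982.5.S1_at and Ta.9819.1.S1_at lower. At Ta.27689.1.A1_at, whose low class mean of 5.09 was close to the median level, high lines were higher by 0.63 ± 0.11 (SE, adjusted p = 0.00488).

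The remaining 5 had class means below 5.06. High lines were higher by 0.74 ± 0.13 (SE) at Ta.9021.1.A1_at (limma adjusted p = 0.00407), by 0.52 ± 0.09 at Ta.30905.1.S1_at (0.00761), by 0.36 ± 0.05 at Ta.28775.1.S1_at (0.000361) and by 0.29 ± 0.04 at Ta.8108.2.S1_at (1.36e-05). TaAffx.120345.1.A1_at was lower by 0.33 (difference −0.33 ± 0.06 SE, 0.00343). At Ta.8108.2.S1_x_at, of the same cluster as Ta.8108.2.S1_at and the first to miss the threshold, the difference was 0.21 ± 0.04 (adjusted p = 0.0657). The 17 clusters held 32 tested probe sets in all, and 12 of them did not pass.

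To show single lines, each line mean was placed on a scale from 0, the mean of the low class, to 1, the mean of the high class. Over the 20 probe sets the median position of the low lines ran from −0.14 to 0.15 and that of the high lines from 0.56 to 1.18. No probe set lay past the midpoint in 3 low and 7 high lines, and 10 lines had 1. The lines with most were F36 with 8, C31 and F38a with 5 each, and H10 and H8 with 4 each. These positions describe the probe sets that passed and carry no test.

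**Figure D4:**
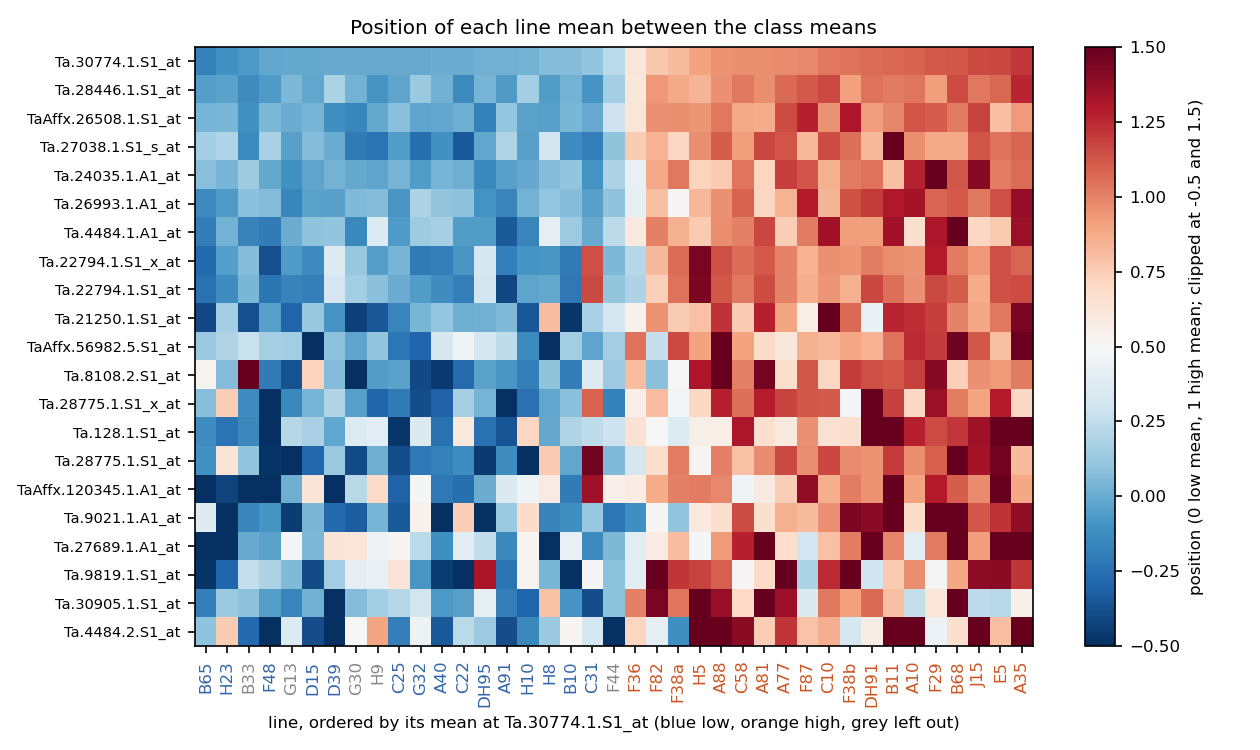
Position of each line mean between the class means (colour, from 0 for the low mean to 1 for the high mean, clipped at −0.5 and 1.5) at the classifying probe set and the 20 probe sets that passed (rows, by adjusted p), with the 39 lines as columns in order of their mean at the classifying probe set. C31 is red among the low lines at the Ta.22794 and Ta.28775 probe sets, F36 is pale in most rows, and the left-out lines (grey names) are mostly blue.

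C31 was a low line at the 6 probe sets whose classes did not overlap, where its position was between −0.18 and 0.00 (−0.00483). At Ta.22794.1.S1_x_at its arrays had 10.77 and 10.68, against a high class mean of 10.61. At Ta.28775.1.S1_x_at they had 9.38 and 9.17 against 9.22, and at Ta.28775.1.S1_at 3.47 and 3.32 against 3.23. Both arrays of C31 thus had high-class levels in these 2 clusters and low-class levels at the 6. Other lines were past the midpoint in the Ta.28775 cluster too. The low line H23 was so at both probe sets, and the low line H8 at Ta.28775.1.S1_at. Of the high lines, F36 was so at Ta.28775.1.S1_at, and F38a and F38b at Ta.28775.1.S1_x_at. Without C31 the difference at Ta.22794.1.S1_at was 1.00 (1.99-fold) in place of 0.92.

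At the 6 probe sets the line mean of F36 lay between the class means, at positions of 0.41 to 0.76. Its single arrays spread more widely, from 0.21 to 1.31 in replicate 1 (median 0.67) and from 0.20 to 0.61 in replicate 2 (median 0.51). Over all 20 probe sets the line mean of F36 had positions of −0.11 to 1.04. At Ta.22794.1.S1_x_at its arrays had 9.79 and 10.15, close to the low class mean of 9.80 in replicate 1. At TaAffx.26508.1.S1_at they had 5.16 and 4.66, below every other high line mean. F38a had its 2 arrays apart: over the 6 probe sets the median position was 0.68 for replicate 1 and 1.09 for replicate 2. F82 and H5 also had the lower median in replicate 1 (0.63 against 1.14, and 0.59 against 1.04). This order was not particular to F38a, F82 and H5. Over all 20 probe sets, every high line but A81, C58, F36 and J15 had the lower median position in replicate 1. The scale was the same for both replicates. The class difference was larger in replicate 2 at the companion probe set, Ta.26993.1.A1_at, Ta.24035.1.A1_at and Ta.4484.1.A1_at. It was smaller there at TaAffx.26508.1.S1_at and Ta.27038.1.S1_s_at.

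The left-out line F44 had its replicates apart too. Replicate 1 had positions of 0.27 to 0.91 at the 6 probe sets (median 0.39), and replicate 2 of −0.43 to 0.22 (median −0.11). The intermediate level of its replicate 1 array at the classifying probe set, 5.57, was thus accompanied by levels between the class means at these 6 probe sets. At TaAffx.26508.1.S1_at this array had 4.37. At Ta.4484.1.A1_at it had 4.41, within the range of the high line means. Over all 20 probe sets the positions of this array ran from −0.65 to 0.91. The other left-out lines lay on the low side of the midpoint at the 6 probe sets, with line means at positions of −0.15 to 0.05 in G13, −0.21 to 0.06 in G30, −0.17 to 0.14 in B33 and −0.24 to 0.36 in H9. In H9 the arrays were far apart at 2 other probe sets that divide the lines into 2 levels, with 4.33 and 9.72 at one and 8.83 and 4.59 at the other, but not at the classifying probe set.

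Levels within a class were also set side by side with those of the classifying probe set, for 12 relations (6 probe sets, 2 classes). The values that chose the lines enter these correlations, and the probe sets were selected for dividing the same lines. The correlations are therefore given as a description, and no p-value is reported. In the 19 high lines, Pearson's r of the line means was 0.80 for Ta.26993.1.A1_at (Spearman's rho 0.75), 0.77 for the companion probe set (rho 0.64) and 0.64 for Ta.24035.1.A1_at (rho 0.58). It was 0.41 for TaAffx.26508.1.S1_at (rho 0.21), 0.39 for Ta.4484.1.A1_at (rho 0.26) and −0.44 for Ta.27038.1.S1_s_at (rho −0.32). Without F36 and F82, the lines farthest from the median, r was 0.71, 0.59, 0.45, 0.03, 0.27 and −0.27 in the same order. Line means share their arrays between the probe sets, whereas the classifying probe set on 1 array of each line can be set against the other probe set on the other array. This gave r of 0.59 and 0.40 for Ta.26993.1.A1_at, where values from the same arrays gave 0.66 in replicate 1 and 0.78 in replicate 2. For the companion probe set it gave 0.70 and 0.55 (0.79 and 0.55 on the same arrays), and for Ta.24035.1.A1_at 0.20 and 0.57 (0.73 and 0.50). For TaAffx.26508.1.S1_at it gave −0.03 and 0.49, for Ta.4484.1.A1_at 0.02 and 0.36, and for Ta.27038.1.S1_s_at −0.71 and 0.05. In the 15 low lines r of the line means lay between −0.31 and 0.35 for the 6 probe sets, and there the classifying probe set lay below the median level.

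The class difference was next set side by side in the 2 replicate numbers, which were scanned in separate campaigns. All 20 probe sets had the same direction in each. Taken alone, 10 of them passed in both replicates, 9 in 1 and 1 in neither, with all 34 lines in each fit. At TaAffx.26508.1.S1_at the difference was 2.24 in replicate 1 and 2.18 in replicate 2, and at Ta.27038.1.S1_s_at it was −0.97 and −0.85. At Ta.26993.1.A1_at it was 1.41 and 1.83, and at Ta.24035.1.A1_at 1.21 and 1.49. The test of a difference between replicate numbers passed at 0 of 61114 probe sets (limma, smallest adjusted p = 0.602), while 4980 had an unadjusted p below 0.05, among them 5 of the 20. The 1 that passed in neither replicate alone was TaAffx.120345.1.A1_at, with −0.29 (adjusted p = 1.00) and −0.37 (adjusted p = 0.12).

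**Figure D5:**
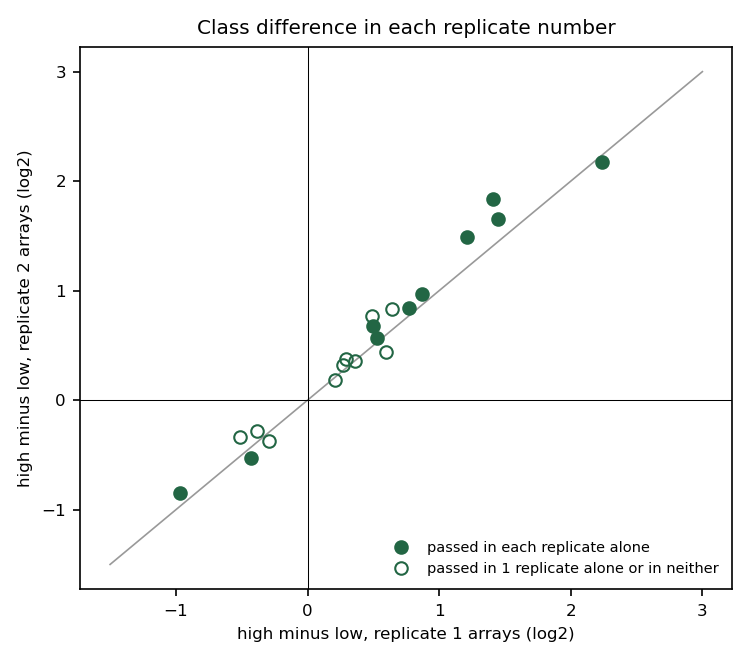
Difference between high and low lines in log2 units in replicate 1 arrays (horizontal axis) and replicate 2 arrays (vertical axis) for the 20 probe sets, with the line marking equal values. Filled points passed in each replicate alone, and the 20 points lie in the quadrants of equal sign.

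No gene with a functional name was among the 20. The 200 probe sets with a name other than a locus number had limma adjusted p of 0.897 or more, and 7 of them had an unadjusted p below 0.05. Of 156 probe sets in 10 lists of named genes, 0 passed, and 7 had an unadjusted p below 0.05, against 2850 of all 61114. The lists covered starch and sugar enzymes, storage proteins, inhibitors and thionins, photosynthesis, histones, tubulins, translation, stress and defence, dehydrins and LEA proteins, and tapetum and pollen. Their median difference was −0.01, as over all tested probe sets, with list medians between −0.05 and 0.03. GBSS, the granule-bound starch synthase, had 9.70 ± 1.15 in low and 9.16 ± 1.12 in high lines, a difference well within the spread of lines. The heat shock gene hsp16.9A differed by 0.45 ± 0.24 (SE, limma unadjusted p = 0.0626), with both class means below the median level. The alpha-tubulin gene TUBA differed by 0.29 ± 0.17 (unadjusted p = 0.0939). Lower in high lines were Em by −0.11 ± 0.04 (unadjusted p = 0.0135), eIF-2-beta by −0.10 ± 0.05 (0.0404) and raftin1b by −0.10 ± 0.05 (0.0442). None of these passed (limma adjusted p = 0.897 for each). The raftin1b value is of 1 probe set, with both class means below the median level. At the other raftin1b probe set the difference was −0.02 (limma adjusted p = 0.955). For the tapetum and pollen list, led by the profilin gene PRO1, the summed intensity was 14063 to 16287 in low and 13586 to 16597 in high lines. For the photosynthesis list it was 64468 to 78010 and 69530 to 77393. The ranges of both lists overlapped between the classes.

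Other probe sets that divide the lines into 2 levels had no difference between these classes past the threshold. For 6 of them, named with the processing, the differences between high and low lines were −1.10 ± 0.50 (SE), −0.62 ± 0.90, −0.43 ± 0.61, −0.18 ± 0.48, −0.06 ± 0.62 and 1.03 ± 0.64, and none passed (limma adjusted p of 0.897 or more). The SD of line means within a class was 1.02 or more at each. A p that misses the threshold does not show that the classes were alike there.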

How the data were processed

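Affymetrix wheat arrays of 78 seed samples were read as the deposited intensities, which the authors made with RMA (background subtraction, normalization between arrays and summary of probes), per the submitters' processing notes; the version is not given in the sources used here. Values were linear (5.04 to 27696) and were taken to log2 with no constant added. From 61290 probe sets, 111 control and 64 reporter probe sets and the 1 of cluster Ta.30774 were left out. The classifying probe set is Ta.30774.1.S1_at and the companion is Ta.28446.1.S1_at. The 6 others that divide the lines are, in the order given, Ta.12020.1.A1_at, TaAffx.58902.1.S1_x_at, Ta.12445.1.A1_at, Ta.22975.1.S1_at, Ta.9188.2.S1_at and Ta.6215.1.A1_at; H9 was described at TaAffx.58902.1.S1_x_at and Ta.6215.1.A1_at.

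Line means of 2 arrays were compared, high minus low, with limma (version 3.58.1, lmFit then eBayes; R 4.3.3, data.table, version 1.17.8; statmod 1.5.0), p-values being Benjamini-Hochberg adjusted over 61114 probe sets. On simulated data for this comparison the fit recovered 31 of 50 probe sets shifted by 0.25 log2 units, 41 by 0.5, 49 by 1 and 50 by 2, with 9 false calls. The simulated noise was normal and independent between probe sets, and more probe sets were shifted than passed in the data. These recoveries may therefore not hold for the data. Replicates were compared on within-line differences. Permutation p-values of the correlations within classes were computed and are not reported, because the values that chose the lines enter the correlations. Descriptions and plots used matplotlib 3.10.9, pandas 2.3.3, scipy 1.17.1 and numpy 2.4.6 under Python 3.11.15.

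Classes, lists and lines were chosen with earlier results of these data known. Probe sets were named by rule. Taken were the 10 largest differences in each direction among those that passed, those with a gene and the 10 most like the classifying probe set. Non-overlapping ones and list members by adjusted p were taken too. The list members taken were tied at a limma adjusted p of 0.897, so their choice was arbitrary. The rest of the 20 were named after their values were seen, as were single lines. Of tested probe sets, 1273 had 1 gene symbol, 0 several and 59841 none, and 1272 matched a RefSeq gene. Instrument files gave scan days. The number of arrays limits precision. Raw probe intensities and probe sequences were not analysed here.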

Additional observations from a re-analysis of the deposited data

How the results depend on the processing

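All 20 differences kept their direction under the 15 alternatives in which they were tested and on leaving out each of the 34 lines, and no call was lost on leaving out a line (adjusted p up to 0.0449). Of 972 such values 960 kept the call and 12 did not, 11 of them in single-replicate fits. The other 1 (Ta.4484.2.S1_at, limma adjusted p = 0.09) was with scan day as a fixed term, which called 14 higher and 5 lower in high lines. Some of the 972 are repeats. The threshold of 5 left the classes unchanged. The fits without H8 and without A35 were each run as an alternative and again as a left-out line. Among counts, 15 probe sets were higher in high lines and 5 in low lines. These became 15 to 16 and 5 to 5 on leaving out a line, and 16 and 5 without F36 and C31, an alternative chosen after seeing the data. Only probe sets at or above the median level in the higher class gave 8 in place of 15, because 7 of the 15 lay below it in both classes. Replicate 2 arrays alone gave 2 higher in low lines in place of 5, and array weights gave 9 in place of 5; the cause was not tested. With arrays in place of line means and line as a random block, counts were 17 and 7, and 18 and 7 with the replicate number as a block (replicate block), and all 20 calls were kept. Differences between replicates correlated between lines with a median of 0.14 over 561 pairs (−0.57 to 0.69), with 310 pairs over 0.1. Replicate numbers largely mark scan batches, and each line mean holds 1 array of each number. A class threshold of 5 gave the same classes, so its 15 higher in high lines was fixed in advance. A threshold of 6, which left out F36 and put F44 among the low lines, gave 17. The interaction count was 0 under every alternative run. Levels below the median, not shown to exceed background, limit 10 of the 20 probe sets, 8 in both classes and 2 in the low class.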
